A study of Homo sapiens with 36 samples.

Results

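The response of A2780 wt cells to carboplatin in complete medium was compared across all genes of an RNA sequencing count table. Of the 36 libraries of the series 6 entered, namely the 3 labelled A2780 WT with treatment none (libraries 1 to 3) and the 3 labelled A2780 WT carbo (libraries 4 to 6). Libraries 7 to 18 served for side comparisons only. They are wt cells in medium without serine and glycine and A2780cis cells in complete medium, each with and without carboplatin. Of the 57820 genes in the table, 14639 passed the filter on low counts and were tested. A2780 is an established human ovarian cancer line, and its cisplatin-resistant derivative A2780cis, made by chronic exposure of parental cells to cisplatin, is the other line of the study. Both wt groups grew in RPMI medium with fetal bovine serum, glutamine, penicillin and streptomycin, and differed by carboplatin. The labels give its dose as 6 M, and the study's other assays used it in the micromolar range. Neither source states how long the sequenced cells were exposed, and the study's general methods give day 5 unless noted otherwise. The comparison asks which transcripts differ in sensitive cells under platinum when serine and glycine are supplied.

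According to the study's figure legends, libraries that share a condition are technical replicates, and the p-values therefore cover the spread between these libraries and not that between independent cultures. The untreated libraries held 17937923 to 18788646 counts on genes and the treated ones 16979349 to 18987036, and the number of genes with at least 1 count was 22422 to 22821 without and 23613 to 24118 with carboplatin. Mitochondrial transcripts took 3.35% to 4.79% of counts without and 4.65% to 5.23% with carboplatin, and library 2 held the lowest share; the part of this difference in the results was not tested. Library 2 also stood farthest from the other untreated libraries, and replicate pairs differed by a mean chi-square of 1.33 to 4.53 per gene, above the sampling noise of counts. In bulk RNA, fewer cells of a kind and less RNA per cell cannot be told apart.

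The labelled cell type was checked against marker genes. PAX2, a transcription factor of the Müllerian lineage, was measured at 162.5 to 165.7 CPM (counts scaled to library size) without and 172.8 to 186.0 with carboplatin, while the epithelial marker EPCAM stayed between 0.729 and 1.18 CPM and CDH1, PAX8, WT1 and MUC16 had 0 to 8 counts in every library. Of the epithelial and ovarian markers, PAX2 was thus the one at a high level in both groups. The summed level of 5 immune markers was 0.219 to 0.364 CPM without and 0.161 to 0.363 with carboplatin, with CD3E at 0 counts in all 6 libraries. The 2 endothelial markers summed to 0 without and 0.107 to 0.291 CPM with carboplatin. The fibroblast genes COL1A1 and COL3A1 were abundant in both groups, whereas DCN and LUM stayed at or below 1.41 CPM.

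Carboplatin is a platinum drug whose aquated form binds purine bases and crosslinks DNA, so that replication forks stall and the checkpoint kinases ATR and ATM signal to p53. p53 then activates genes of cell cycle arrest, repair and death, and its target p21, encoded by CDKN1A, holds the retinoblastoma family and the DREAM complex in the form that represses genes of replication and mitosis. Damaged cells that stop dividing but live on are known to secrete cytokines, proteases and growth factors under the control of NF-kB, a state called senescence-associated secretion.

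Of the 14639 genes tested, 77.8% were called at a Benjamini-Hochberg adjusted p under 0.05 in edgeR's quasi-likelihood test. Those higher with carboplatin made up 38.9% and those lower 39% under TMM scaling, which centres the changes, and scaling by total counts gave 5125 higher and 6336 lower. Most calls were small: 5984, or 52.5% of them, changed by less than 1.5-fold, and the median absolute log2 fold change of called genes was 0.55 beside a median standard error (SE) of 0.064. A change of at least 2-fold was called for 1552 genes in the higher direction, 10.6% of those tested, and for 1250 in the lower direction, 8.54%. Beyond 4-fold the balance shifted, with 606 genes higher and 185 lower. Among 1312 long noncoding RNA genes tested, 14.2% were at least 2-fold higher and 11.4% lower, against 9.94% and 8.29% of 12358 protein-coding genes. Called at any size were 410 higher and 343 lower of the noncoding genes, against 4965 and 5114 of the protein-coding ones. Shares past 2-fold varied with level, whose part in this difference was not tested. The median log2 fold change over all genes tested was -0.0007, which is the reference for the medians of gene lists. In the same way 38.9% higher and 39% lower are the reference for counts of called members. The CPM of the groups did not overlap for 77.9% of genes tested, so a lack of overlap alone does not set a gene apart. List members with few counts without carboplatin, such as CX3CL1, ICAM1, COL17A1, KLF4, KRT8, KRT18 and KRT19, could pass the filter only through treated libraries. Their direction was fixed in advance. A gene is called higher or lower only where it passed that test. Levels are CPM scaled by TMM, given for single libraries in the order 1 to 3 and 4 to 6 or as mean ± SD (n = 3), and changes are log2 ratios of carbo over none with their SE. Many adjusted p-values were too small for the computer to hold, and for those only the change and its SE are given. The strand setting of the counting is not given in the sources used here, so a gene whose exons overlap another gene with reads is uncertain to that extent. Beside the overlaps named with each result, this holds for POLK (CERT1), CDC25C (FAM53C), RAD9A (PPP1CA), MUS81 (CFL1), PRIMPOL (CENPU), HLTF (GYG1), BAD (GPR137), BCL2L11 (MIR4435-2HG), CCND1 (LTO1), CCNE2 (INTS8), PC (LRFN4), SLC25A32 (DCAF13), SQSTM1 (MGAT4B), MXD1 (SNRNP27) and MXD3 (PRELID1), and SLC1A5 overlaps another gene in the same way.

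**Figure D1:**
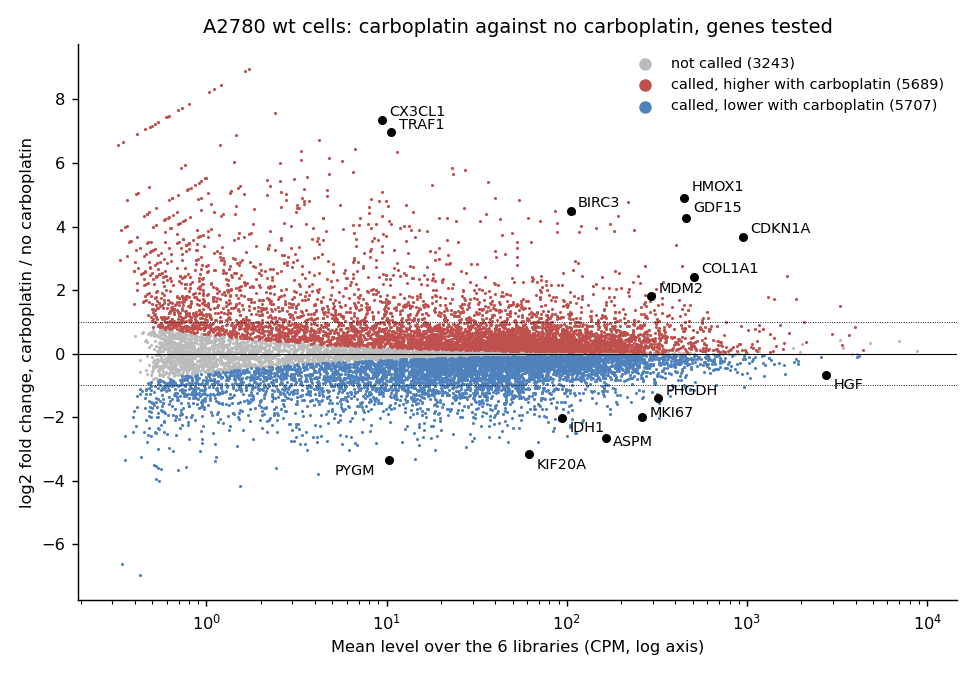
Each point is a gene tested, with its mean level over the 6 libraries (CPM, log axis) on the x axis and its log2 fold change, carboplatin over none, on the y axis; red points were called higher, blue points lower and grey points neither, and dotted lines mark 2-fold. CX3CL1 and TRAF1 reach the top of the cloud from low levels, while CDKN1A, GDF15 and HMOX1 combine high levels with large increases, and KIF20A and ASPM lie at its lower edge.

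The p53 response was broad. Of 50 listed p53 target genes 48 were tested, of which 42 were higher, 5 were lower and 1 was not called, where 38.9% and 39% of all genes tested were higher and lower. Of the higher ones 29 passed 2-fold, where 10.6% of all genes did. Their median change was 1.14 on the log2 scale. CDKN1A, whose product p21 inhibits cyclin-dependent kinases (chr6:36644237-36655114, GRCh37), was measured at 138.8, 140.9 and 136.8 CPM without and 1761.0, 1784.8 and 1755.1 CPM with carboplatin. Both groups were tight and far apart, a 12.7-fold difference (log2 3.67, SE 0.02). MDM2, the ubiquitin ligase that degrades p53 (chr12:69201957-69239324), rose from 130.2, 129.6 and 131.6 to 444.9, 466.0 and 461.2 CPM, a change of 1.81 with an SE of 0.02. The groups did not overlap for either gene, although exons of MDM2 overlap the carboxypeptidase M gene.

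Within the list, the largest increase was that of GDF15, a secreted stress cytokine, from 43.1, 47.5 and 44.8 to 873.5, 894.4 and 861.8 CPM (4.28, SE 0.02). FAS, the death receptor, rose from 11.4, 11.7 and 11.6 to 94.9, 93.7 and 95.6 CPM (3.04, SE 0.05). PRDM1, a transcriptional repressor, reached 11.6 ± 0.612 CPM from 1.45 ± 0.27 (SD, n = 3). FAS shares exon sequence with ACTA2, whose reads could count to either gene. Several targets went the other way: CCNG1, cyclin G1, fell by 0.47 (SE 0.02) from 273 ± 2.76 to 197 ± 6.58 CPM, and POLK, a translesion polymerase, fell by 0.35. APAF1, the scaffold of the apoptosome, fell by 0.28, and the decoy receptor TNFRSF10C by 0.54 at a level under 5 CPM. The calls of POLK (adjusted p = 0.0835) and APAF1 (adjusted p = 0.267) were lost where all 36 libraries shared one edgeR fit. A p53 half-site, searched by its consensus, was found in 4 of the 39 promoters available for the list, 10.3%, beside 6.54% of all promoters.

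Apoptosis genes changed in both directions. Of 25 tested members of the BCL2 family and caspases, 14 (56%) were higher, 10 (40%) lower and 1 not called, beside 38.9% and 39% of all genes tested. Past 2-fold were 5 and 1, and the median was 0.34. The BH3-only genes BBC3 (PUMA), BMF and PMAIP1 (NOXA) rose by 1.65, 1.36 and 1.14, the effector BAK1 by 1.04. BBC3 went from 28.5 ± 0.649 to 89.5 ± 1.91 CPM. BCL2, which protects cells from apoptosis, fell by 0.43 and XIAP, an inhibitor of caspases, by 0.34. BAD, a pro-apoptotic member, fell by 0.63, a call lost in the fit of 36 libraries (adjusted p = 0.055). BCL2L11 (BIM) was not called, at 3.85 ± 0.576 and 4.28 ± 0.174 CPM (adjusted p = 0.342).

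Mitotic genes fell without exception among those listed. All 40 listed G2/M and mitosis genes were tested, all 40 were lower and all 40 passed 2-fold, from -1.2 to -3.17 with a median of -2.05, where 8.54% of genes tested were lower by that much. KIF20A, a kinesin of the cytokinetic bridge (chr5:137514408-137523412), was measured at 111.5, 112.2 and 110.6 CPM without and 13, 12.5 and 11.4 with carboplatin (-3.17, SE 0.05). CCNB2, cyclin B2 (chr15:59397325-59417244), went from 85.0, 81.6 and 80.3 to 12.4, 12.2 and 11.1 CPM (-2.79, SE 0.05). No treated library came near an untreated one for either gene. CENPA, the centromeric histone, and ASPM, a spindle pole protein, fell by 2.70 and 2.67. MKI67, the Ki-67 proliferation antigen (chr10:129894923-129924687), fell from 433.0, 410.4 and 415.5 to 100.8, 105.0 and 106.7 CPM (-2.01, SE 0.02). KIF20A exons overlap CDC23 and BRD8, and CENPA exons overlap SLC35F6, so some of their reads may belong to those genes.

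Promoters of these genes are shown because they carry the boxes through which DREAM and, separately, NF-Y are known to act. In RefSeq promoters of 250 bases before to 50 after the annotated start (GRCh38.p14, another build than that of the counts), 34 of the 40 mitotic genes had an entry. The cell-cycle genes homology region (CHR, TTTGAA) was found on either strand in 24 of them, 70.6%, beside 15.4% of all 27305 promoters, and CCAAT in 29, 85.3%, beside 35.7%. Both occurred together in 22, 64.7% against 6.08%, and neither in 3. CHR and CCAAT do not overlap in their letters. In the 200 bases before the start, CHR and CCAAT letters on either strand are in capitals (CCNB2 at chr15:59104946-59105145 on the plus strand, CENPA at chr2:26785856-26786055 on the plus strand, ASPM at chr1:197146670-197146869 on the minus strand).
CCNB2: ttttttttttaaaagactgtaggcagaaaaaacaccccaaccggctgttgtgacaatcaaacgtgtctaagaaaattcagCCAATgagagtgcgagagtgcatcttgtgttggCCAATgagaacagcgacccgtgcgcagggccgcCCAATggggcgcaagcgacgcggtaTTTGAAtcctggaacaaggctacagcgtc
CENPA: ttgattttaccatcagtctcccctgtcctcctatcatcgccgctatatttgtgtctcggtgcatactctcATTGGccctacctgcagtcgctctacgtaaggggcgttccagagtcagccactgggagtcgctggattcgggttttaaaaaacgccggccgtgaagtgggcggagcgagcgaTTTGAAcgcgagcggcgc
ASPM: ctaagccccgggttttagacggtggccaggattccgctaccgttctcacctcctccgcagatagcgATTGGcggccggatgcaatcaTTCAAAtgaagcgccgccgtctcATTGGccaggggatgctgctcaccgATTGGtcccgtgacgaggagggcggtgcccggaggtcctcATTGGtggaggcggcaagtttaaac
CCNB2 holds 1 CHR and 3 CCAAT boxes in this window, CENPA 1 of each, and ASPM 1 CHR and 4 CCAAT boxes. A match is a description of letters and no evidence of binding. Over all tested genes with a promoter entry, the 442 with both boxes had a median change of -0.19, beside -2.05 for the listed genes.

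Replication genes were lower as well. Of 39 tested members 38 were lower and 1 was higher, beside 39% and 38.9% of all genes tested. Past 2-fold in the lower direction were 26, where 8.54% of all genes were, and the median was -1.19. MCM2, a subunit of the replicative helicase, was at 285.1, 283.2 and 285.6 CPM without and 94.5, 98.6 and 92.9 with carboplatin (-1.58, SE 0.03). The primase subunits PRIM1 and PRIM2 fell by 1.75 and 1.65 and the polymerase epsilon subunit POLE2 by 1.74, while PRIM1 exons overlap the far more abundant NACA. The single higher member was PCNA, the sliding clamp, from 228 ± 7.26 to 299 ± 5.29 CPM (0.39, SE 0.02). PCNA is also a known p53 target.

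E2F factors are known to bind promoters of replication genes. Either TTTGGCGC or TTTCCCGC occurred in 14 of 33 replication promoters, 42.4%, beside 2.31% of all promoters, whereas CHR occurred in none of the 33. On the given strand alone the share was 12.1%. MCM3 and MCM6, further helicase subunits, fell by 1.52 and 1.51, and their promoters are printed with these letters in capitals (MCM3 at chr6:52284743-52284942 on the minus strand, MCM6 at chr2:135876444-135876643 on the minus strand).
MCM3: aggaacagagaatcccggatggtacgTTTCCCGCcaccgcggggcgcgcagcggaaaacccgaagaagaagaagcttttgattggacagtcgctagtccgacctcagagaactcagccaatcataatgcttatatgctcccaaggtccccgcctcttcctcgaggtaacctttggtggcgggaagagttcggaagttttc
MCM6: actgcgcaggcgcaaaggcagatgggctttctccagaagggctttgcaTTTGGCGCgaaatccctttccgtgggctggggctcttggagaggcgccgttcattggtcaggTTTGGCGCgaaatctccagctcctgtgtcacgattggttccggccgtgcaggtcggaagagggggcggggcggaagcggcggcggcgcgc
MCM6 holds the letters 2 times and MCM3 once in these 200 bases. Among the 877 promoters of genes called at least 2-fold lower, 19.6% held CHR and 7.3% E2F letters. The shares among the 10666 promoters available for genes tested were 9.68% and 3.59%.

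The regulators of this program moved in both directions. Of 19 tested E2F, pocket protein and DREAM genes, 13 (68.4%) were lower, 5 (26.3%) higher and 1 not called, with a median of -0.38. Of all genes tested 39% were lower and 38.9% higher. The activator E2F1 was measured at 43.9 ± 1.08 without and 14.5 ± 0.807 CPM with carboplatin (-1.6, SE 0.06), E2F2 fell by 1.88, and the atypical repressor E2F8 by 1.80. E2F3, E2F7 and E2F6 rose by 0.47, 0.44 and 0.38. LIN52, a DREAM subunit, fell by 1.75. Among 16 CDK inhibitors and cyclins 5 (31.2%) were higher and 9 (56.2%) lower, and 4 passed 2-fold in the higher direction: CDKN1A, CCND1, CDKN2B and CDK6. CCND1, cyclin D1, went from 239 ± 4.28 to 626 ± 4.53 CPM (1.39, SE 0.02), while CDKN2B (p15) and CDK6 rose by 1.77 and 1.25 from 13 counts or fewer in every untreated library. The inhibitor genes CDKN2A (p16 and ARF) and CDKN1C (p57) both fell by 1.29, at mean levels under 6 CPM, and CDK2 fell by 1.07. CCND2 and CCNE2 were not called, with changes of 0.04 each, although CCND2 was called under 4 alternatives at 0.04 to 0.06.

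Checkpoint genes mostly fell. Of 22 tested, 18 (81.8%) were lower, 3 (13.6%) higher and 1 not called (median -0.69), beside 39% and 38.9% of all genes tested. CHEK1, the kinase downstream of ATR, fell from 61.1 ± 0.702 to 19.9 ± 1.23 CPM (-1.62), CDC25C, the phosphatase that starts mitosis, by 1.90, and CLSPN (claspin) by 1.13. WEE1, the kinase that restrains CDK1, rose from 54.1 ± 0.4 to 108 ± 0.956 CPM (1.01, SE 0.04). HUS1, a subunit of the checkpoint clamp, rose by 0.72, and its partner RAD9A fell by 1.15. ATM rose by 0.28, a call that did not hold when all 12 wt libraries (adjusted p = 0.191) or all 36 libraries (adjusted p = 0.412) shared one edgeR fit. CHEK1 exons overlap STT3A.

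Crosslink repair is the pathway that removes platinum adducts bridging both strands, and its genes were lower. Of 36 Fanconi anemia and homologous recombination genes 30 (83.3%) were lower, 3 (8.33%) higher and 3 not called, beside 39% and 38.9% of all genes tested. In the lower direction 22 passed 2-fold, where 8.54% of all genes did, and none in the higher. The median was -1.13. FANCE, a subunit of the Fanconi core complex (chr6:35420115-35434881), was at 26.2, 27.8 and 27.9 CPM without and 5.21, 4.42 and 5.71 with carboplatin (-2.41, SE 0.08). RMI2, of the BLM dissolvasome, fell by 1.82, UBE2T, which conjugates ubiquitin to FANCD2, by 1.6, and BARD1, the partner of BRCA1, by 1.59. The 3 higher members changed little: MUS81, a structure-specific nuclease, by 0.26, RAD51C by 0.25 and RAD50 by 0.08. PALB2 was at 21.4 ± 0.618 and 22.1 ± 0.817 CPM and was not called. The call of RAD50 was lost without library 2 (adjusted p = 0.0691), without library 3 (adjusted p = 0.144) and under 5 other alternatives, and those of MUS81 (adjusted p = 0.0731) and RAD51C (adjusted p = 0.0954) in the fit of 36 libraries.

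Nucleotide excision repair, which removes platinum adducts within one strand, had members in both directions: of 23 tested genes 10 (43.5%) were higher, 8 (34.8%) lower and 5 not called, close to the 38.9% and 39% of all genes tested, with a median of 0.07. ERCC1, part of the nuclease that cuts 5′ of the lesion, was an exception in size, at 97 ± 2.59 without and 201 ± 1.66 CPM with carboplatin (1.05, SE 0.03). The damage sensor XPC rose by 0.62. ERCC4, the other subunit of the ERCC1 nuclease, was at 26.9 ± 0.718 and 27.6 ± 1.14 CPM and was not called, but was with the GC trend removed (0.12, adjusted p = 0.0485). Among 16 translesion synthesis genes 3 (18.8%) were higher and 9 (56.2%) lower (median -0.29). POLH, the polymerase that copies past intrastrand crosslinks, rose from 37 ± 0.83 to 75.6 ± 2.71 CPM (1.03), whereas PRIMPOL, HLTF and POLQ fell by 1.31, 1.29 and 1.20. Exons of ERCC1 and POLH overlap POLR1G and GTPBP2.

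**Figure D2:**
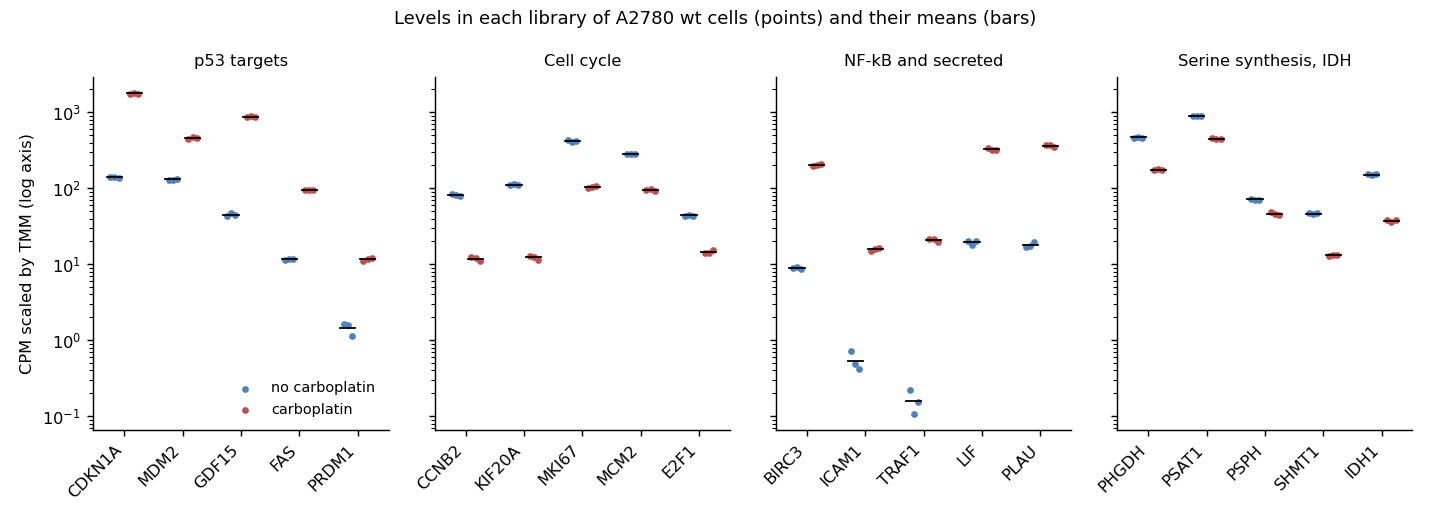
Points are single libraries and bars group means of scaled CPM (log axis) for 5 genes in each of 4 panels, p53 targets, cell cycle, NF-kB and secreted factors, and serine synthesis with IDH1; blue marks no carboplatin and red carboplatin. The groups do not overlap for any gene drawn, as for 77.9% of genes tested, and PSPH shows the smallest separation.

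NF-kB genes rose together. All 18 matched and tested NF-kB pathway genes were higher, 14 of them past 2-fold where 10.6% of genes tested were, with a median of 2.09. CX3CL1, TRAF1 and ICAM1 passed the filter on low counts only through the treated libraries. These counts thus rest in part on members whose direction was fixed in advance. CX3CL1, the chemokine fractalkine (chr16:57406389-57418956), had 3, 3 and 0 counts without and 386, 293 and 306 with carboplatin, 0.164, 0.163 and 0 against 20.7, 17.7 and 17.8 CPM. TRAF1, an adaptor of tumor necrosis factor receptors, went from 0.219, 0.108 and 0.156 to 21.6, 21.8 and 19.8 CPM. ICAM1, an adhesion receptor, rose from 0.539 ± 0.154 to 15.7 ± 0.588 CPM (4.85). BIRC3, the ubiquitin ligase cIAP2, was at 9.04, 9.11 and 8.54 without and 198.4, 200.1 and 205.6 CPM with carboplatin (4.50, SE 0.04). All 4 were low in each untreated library and higher in each treated one. The subunit genes changed less, REL by 1.52, NFKB2 by 1.53, NFKB1 by 0.73 and RELA by 0.45.

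The inhibitors of the pathway rose with its targets. NFKBIA, which encodes the inhibitor IκBα, went from 38 ± 1.11 to 205 ± 7.13 CPM (2.43, SE 0.03) and TNFAIP3, the deubiquitinase A20, from 1.51 ± 0.232 to 14.8 ± 0.771 CPM (3.3, SE 0.13). The κB site, a motif added after seeing the data, was found on either strand in 5 of 14 promoters of the list, 35.7%, beside 5.72% of all promoters and 11.7% of the 1023 promoters of genes at least 2-fold higher. Of these 5 promoters 3 are printed with the letters of the motif in capitals (BIRC3 at chr11:102317284-102317483 on the plus strand, TNFAIP3 at chr6:137867059-137867258 on the plus strand, NFKBIA at chr14:35404750-35404949 on the minus strand).
BIRC3: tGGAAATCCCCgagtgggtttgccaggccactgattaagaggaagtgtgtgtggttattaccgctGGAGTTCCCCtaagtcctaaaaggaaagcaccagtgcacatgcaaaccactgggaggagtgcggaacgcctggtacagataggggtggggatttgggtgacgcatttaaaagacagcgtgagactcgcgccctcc
TNFAIP3: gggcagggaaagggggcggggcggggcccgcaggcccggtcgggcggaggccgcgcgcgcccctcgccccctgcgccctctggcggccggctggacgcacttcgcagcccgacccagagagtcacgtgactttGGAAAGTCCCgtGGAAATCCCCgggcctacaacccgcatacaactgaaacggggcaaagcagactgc
NFKBIA: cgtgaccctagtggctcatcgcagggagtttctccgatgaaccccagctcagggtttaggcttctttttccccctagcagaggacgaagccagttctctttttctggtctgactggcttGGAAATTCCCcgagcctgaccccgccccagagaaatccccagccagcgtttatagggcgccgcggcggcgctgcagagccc
BIRC3 and TNFAIP3 hold 2 such sites each in these 200 bases and NFKBIA holds 1. On the given strand alone the share for the list was 14.3%.

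Secreted factors of senescent cells rose strongly where they were measured, but the classical interleukins were not among them. Of 33 listed factors 21 were tested, 19 (90.5%) higher and 2 (9.52%) lower, beside 38.9% and 39% of all genes tested. Past 2-fold in the higher direction were 15, where 10.6% of all genes were, and the median was 2.81. Setting the 3 genes with 0 counts throughout 1 group to their bounds could not move that median, as the bounds lay above it. These 3 genes passed the filter through the other group. INHBA, with 0, 1 and 0 counts without and 27, 22 and 30 with carboplatin, passed in the same way. For such members the filter fixed the direction in advance, so the counts and the median rest in part on them. PLAU, the urokinase protease, went from 16.7, 17.4 and 19.8 to 368.2, 370.5 and 354.5 CPM (4.34, SE 0.03), and LIF, a cytokine of the interleukin-6 family, from 20.1, 17.9 and 20.2 to 339.9, 322.3 and 322.9 CPM (4.08, SE 0.03). PLAT, the tissue plasminogen activator, rose by 4.18. CSF2, CCL2 and IGFBP3 had 0 counts in all 3 untreated libraries and 16 to 32, 10 to 13 and 13 to 16 with carboplatin. HGF, hepatocyte growth factor, was abundant and lower, at 3381 ± 19.4 and 2119 ± 15.7 CPM (-0.67, SE 0.02), and TIMP2, a protease inhibitor, fell by 1.73. IL6 and CXCL8 had 0 counts without and 0 to 3 with carboplatin, too few to test, and IL1A, IL1B, CXCL1, CXCL2, CXCL3 and CCL20 had at most 6 counts in any library. GDF15 belongs to this list and to that of p53.

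Immediate-early genes, which code for transcription factors and phosphatases that respond within minutes to signals, were higher in 15 of 19 (78.9%), lower in 2 (10.5%) and not called in 2 (median 1.52). Of all genes tested 38.9% were higher and 39% lower. KLF4 had 2, 3 and 1 counts without and 91, 91 and 78 with carboplatin, and passed the filter only through the treated libraries. JUN went from 0.588 ± 0.228 to 8.64 ± 0.949 CPM (3.86) and FOSL1 from 3.29 ± 0.437 to 39.7 ± 0.489 CPM (3.59). FOS, the usual partner of JUN, was not called at 55 ± 2.85 and 55.7 ± 3.15 CPM (adjusted p = 0.645). EGR1 fell by 0.11 and DUSP6, a phosphatase that dampens ERK, by 0.34. The members of the family therefore changed in both directions.

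Interferon-stimulated genes rose in part. Of 31 tested, 22 (71%) were higher, 5 (16.1%) lower and 4 not called, beside 38.9% and 39% of all genes tested. Past 2-fold were 11, and the median was 0.48. ISG20, an exonuclease, rose from 2.14, 1.52 and 1.56 to 14.4, 14.4 and 14.6 CPM (3.05), IFIT3 by 2.08, the transcription factor IRF1 from 80.1 ± 2.93 to 250 ± 2.81 CPM (1.64) and the RNA sensor OAS2 by 1.48. USP18, which limits interferon signalling, fell by 0.81. IFIT3 exons overlap LIPA, a gene with more reads, which leaves its value uncertain. Of 15 antigen presentation genes 9 (60%) were higher and 6 (40%) lower (median 0.37), the share lower being close to that of all genes. CD274, the immune checkpoint ligand PD-L1, was at 1.92, 2.11 and 1.82 without and 12.8, 13.1 and 12.4 CPM with carboplatin (2.71). B2M, the light chain of MHC class I, rose from 884 ± 19.3 to 1432 ± 10.1 CPM (0.7), while the immunoproteasome subunit PSMB9 fell by 0.82 and NLRC5, the activator of class I genes, by 0.26.

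Transcripts of the serine synthesis enzymes were lower for every step of the pathway. PHGDH, the first enzyme of the pathway (chr1:120191034-120286841), was measured at 457.9, 479.9 and 461.5 CPM without and 173.8, 180.0 and 172.9 with carboplatin (-1.41, SE 0.02). PSAT1, the transaminase, went from 897.5, 899.9 and 881.1 to 455.2, 444.8 and 446.9 CPM (-0.99, SE 0.02), and PSPH, the phosphatase, from 72.5, 70.8 and 71.1 to 48.4, 45.9 and 44.5 CPM (-0.63, SE 0.04). No library of one group reached the other, as for 77.9% of all genes tested. Over the list of serine, glycine and one-carbon enzymes 15 of 19 tested genes (78.9%) were lower, 2 (10.5%) higher and 2 not called. Of all genes tested 39% were lower and 38.9% higher. The median of the list was -0.59. SHMT1, the cytosolic enzyme that makes glycine from serine, fell from 46.6, 45.5 and 46.9 to 12.8, 13.1 and 13.3 CPM (-1.83, SE 0.06). GLDC, the decarboxylase that breaks glycine down, rose from 24.5 ± 1.67 to 70.4 ± 1.9 CPM (1.52, SE 0.05), and the mitochondrial folate carrier gene SLC25A32 by 0.40. Exons of SHMT1 overlap SMCR8.

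ATF4 drives serine enzymes and other amino acid genes under stress, and its targets were divided. Of 24 tested members 8 (33.3%) were higher, 15 (62.5%) lower and 1 not called (median -0.39), beside 38.9% and 39% of all genes tested. ASNS, asparagine synthetase, fell from 345.0, 340.8 and 335.9 to 142.9, 142.7 and 147.5 CPM (-1.24, SE 0.02), PCK2 by 1.17, STC2 by 1.25 and VLDLR by 1.30. ATF3, SESN2 and NUPR1 rose by 1.84, 1.14 and 0.98, and SESN2 is at the same time a p53 target. The response element TGATGNAA was found in 6 of 22 promoters of the list, 27.3%, beside 3.67% of all promoters. Amino acid transporters were higher in 6 (37.5%), lower in 9 (56.2%) and not called in 1 of 16 (median -0.12), the share higher being close to that of all genes. SLC43A2, a carrier of large neutral amino acids, rose from 20.5, 21 and 22 to 106.1, 108.2 and 109.5 CPM (2.35, SE 0.04). The glycine carrier SLC6A9, the cystine carrier SLC7A11 and the glutamine and serine carrier SLC1A5 fell by 1.11, 1.08 and 0.83.

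Central carbon metabolism was lower in most of its genes. Of 29 tested genes of the TCA cycle, pyruvate and glutamine use, 23 (79.3%) were lower, 2 (6.9%) higher and 4 not called (median -0.33). Of all genes tested 39% were lower and 38.9% higher. IDH1, the cytosolic isocitrate dehydrogenase that makes NADPH (chr2:209100953-209130798), fell from 152.8, 148.4 and 152.4 to 38.5, 35.8 and 38 CPM (-2.01, SE 0.04). PC, pyruvate carboxylase, fell by 1.75, IDH2, the mitochondrial counterpart of IDH1, by 1.59 and DLAT, of the pyruvate dehydrogenase complex, by 1.16. GLS2, a glutaminase under p53, rose by 1.06. Of 21 glycolysis genes 18 (85.7%) were lower, 2 (9.52%) higher and 1 not called (median -0.32). LDHA, lactate dehydrogenase, fell from 1305.8, 1305.6 and 1278.4 to 751.0, 781.6 and 767.8 CPM (-0.76), ALDOC by 1.81, and PKM, pyruvate kinase, rose from 1324 ± 6.91 to 2098 ± 19.5 CPM (0.66). Nuclear respiratory chain genes were lower in 53, higher in 6 and not called in 15 of 74, none past 2-fold, with a median of -0.28 and the extremes NDUFS4 at -0.89 and ATP5MK at 0.34, the latter a call lost in the fit of 36 libraries (adjusted p = 0.233).

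Biosynthetic lists followed the same direction with small changes. Of 25 cholesterol synthesis genes 18 (72%) were lower and 5 (20%) higher (median -0.36), beside 39% and 38.9% of all genes tested. EBP and INSIG1 fell by 1.56 and 1.54, and LSS by 1.45, whereas SQLE, the squalene epoxidase, rose by 0.46. The sterol element TCACNCCAC was in 1 of 19 promoters and CCAAT in 15. Of 22 purine and pyrimidine genes 17 (77.3%) were lower and 4 (18.2%) higher (median -0.49). CTPS1 rose by 0.75 while its paralog CTPS2 fell by 1.45, and DUT, TK1 and RRM1, which serve DNA precursor supply, fell by 1.40, 1.35 and 1.09. Cytosolic ribosomal proteins were lower in 63, higher in 8 and not called in 4 of 75 with a median of -0.17, none past 2-fold, and many of them have near-identical processed copies that could share reads.

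Stress and storage genes were among those that rose. HMOX1, heme oxygenase (chr22:35776354-35790207), went from 28.5, 28.9 and 30.4 to 857.7, 884.5 and 852.4 CPM (4.88, SE 0.03), and FTH1, ferritin heavy chain, from 78.4, 84.2 and 81.1 to 387.2, 400.1 and 365.5 CPM (2.24, SE 0.03). NFE2L2, the gene of NRF2, rose from 108 ± 0.819 to 265 ± 2 CPM (1.3), although its exons overlap AGPS and HNRNPA3. The rest of the NRF2 and glutathione list was mixed, 14 higher, 8 lower and 4 not called of 26 (median 0.20), with GSTM4, GSTM2 and GSTM1 down by 1.22, 1.05 and 0.72. The 3 GSTM genes are close paralogs. Among lysosome and autophagy genes 23 of 30 (76.7%) were higher, 5 (16.7%) lower and 2 not called (median 0.43), beside 38.9% and 39% of all genes tested. SQSTM1, the autophagy receptor p62, rose from 78.8, 75.1 and 75.9 to 412.4, 428.4 and 413.7 CPM (2.45, SE 0.03), DRAM1 by 1.82 and GABARAPL1 by 1.67. GLB1, the gene of the β-galactosidase stained in senescent cells, fell by 0.15 from 94.4 ± 0.403 to 85.4 ± 3.29 CPM.

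Genes that handle platinum were sparse in these cells. Of 21 listed transporters, copper chaperones and metallothioneins 12 were tested, 6 (50%) higher, 3 (25%) lower and 3 not called (median 0.27). Among all genes tested 38.9% were higher and 39% lower. SLC31A1, the copper importer CTR1, was at 151 ± 2.43 and 137 ± 2.81 CPM (-0.14, SE 0.03), a call lost in the fit of 36 libraries (adjusted p = 0.247). MT2A, a metallothionein, rose by 1.46 at under 10 CPM, and LRRC8A, a channel subunit, from 69 ± 1 to 147 ± 1.92 CPM (1.09) while LRRC8D fell by 0.36. ATP7A was not called, at 5.09 ± 0.505 and 5.5 ± 0.42 CPM (0.12), but was with the GC trend removed (0.29, adjusted p = 0.0312). The efflux pump ABCG2 rose by 0.74 at about 1 CPM, a call lost in DESeq2 (adjusted p = 0.121) and without library 1 (adjusted p = 0.095).

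Structural genes moved in their own pattern. Among 16 tested epithelial and mesenchymal genes 11 were higher, 3 lower and 2 not called (median 0.44), and the keratins led: KRT19 had 0, 0 and 1 counts without and 81, 78 and 90 with carboplatin, a ratio of 266 with an exact 95% interval of 47.3 to 10554. KRT8 and KRT18, whose exons overlap, rose by 4.01 and 3.03. All 3 keratins passed the filter on low counts only through the treated libraries. Their direction was thus fixed in advance, and the number of higher members rests in part on them. The 3 keratins were at 0 to 0.729 CPM without and 4.35 to 6.02 CPM with carboplatin, and EPCAM, at 0.842 ± 0.125 and 0.948 ± 0.208 CPM, was not called. Of 23 collagen genes 15 (65.2%) were higher, 6 (26.1%) lower and 2 not called, beside 38.9% and 39% of all genes tested. COL1A1 rose from 159.5, 161.6 and 161.0 to 850.4, 860.4 and 851.7 CPM (2.41), COL17A1 by 5.07 and COL4A6 by 2.15, whereas COL3A1 fell from 1410 ± 10.5 to 1091 ± 5.59 CPM (-0.37) and COL26A1 by 2.88. COL17A1, with 8, 12 and 10 counts without carboplatin, also passed the filter only through the treated libraries. The summed level of the 4 fibroblast markers, COL1A1 and COL3A1 among them, was 1559.7 to 1583.0 CPM without and 1937.2 to 1956.0 with carboplatin, and its part in the collagen result was not tested. The marker LUM was called lower (-0.75) at about 1 CPM, a call lost under 7 alternatives, among them DESeq2 (adjusted p = 0.212), GC trend removal (adjusted p = 0.13) and leaving out library 2 (adjusted p = 0.297) or library 5 (adjusted p = 0.182), and DCN was too low to be tested.

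Counts of histone genes of the replication-dependent clusters were higher with carboplatin. Of 34 listed genes 16 were tested, 14 (87.5%) higher, 1 (6.25%) lower and 1 not called (median 1.43), beside 38.9% and 39% of all genes tested. Near-identical copies leave single histone genes uncertain, and poly(A) selection misses their usual mRNA. H1-2 rose from 29.2, 27.1 and 27.6 to 120.2, 121.8 and 113.2 CPM (2.08) and H2AC13 by 3.27 at under 5 CPM. Ribosome biogenesis genes were higher in 14, lower in 5 and not called in 5 of 24 (median 0.13), RRP12 by 1.20 and NPM1 lower by 0.63. In the MYC and MXD network 5 of 12 were higher and 5 lower, 41.7% each, close to the shares of all genes tested. The repressor MXD1 rose by 2.19 and MYCL by 2.32, while MXD3 fell by 1.90. Small nucleolar RNA host genes were lower in 14 and higher in 4 of 25, and SNHG3, which shares exons with RCC1, fell by 1.03.

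**Figure D3:**
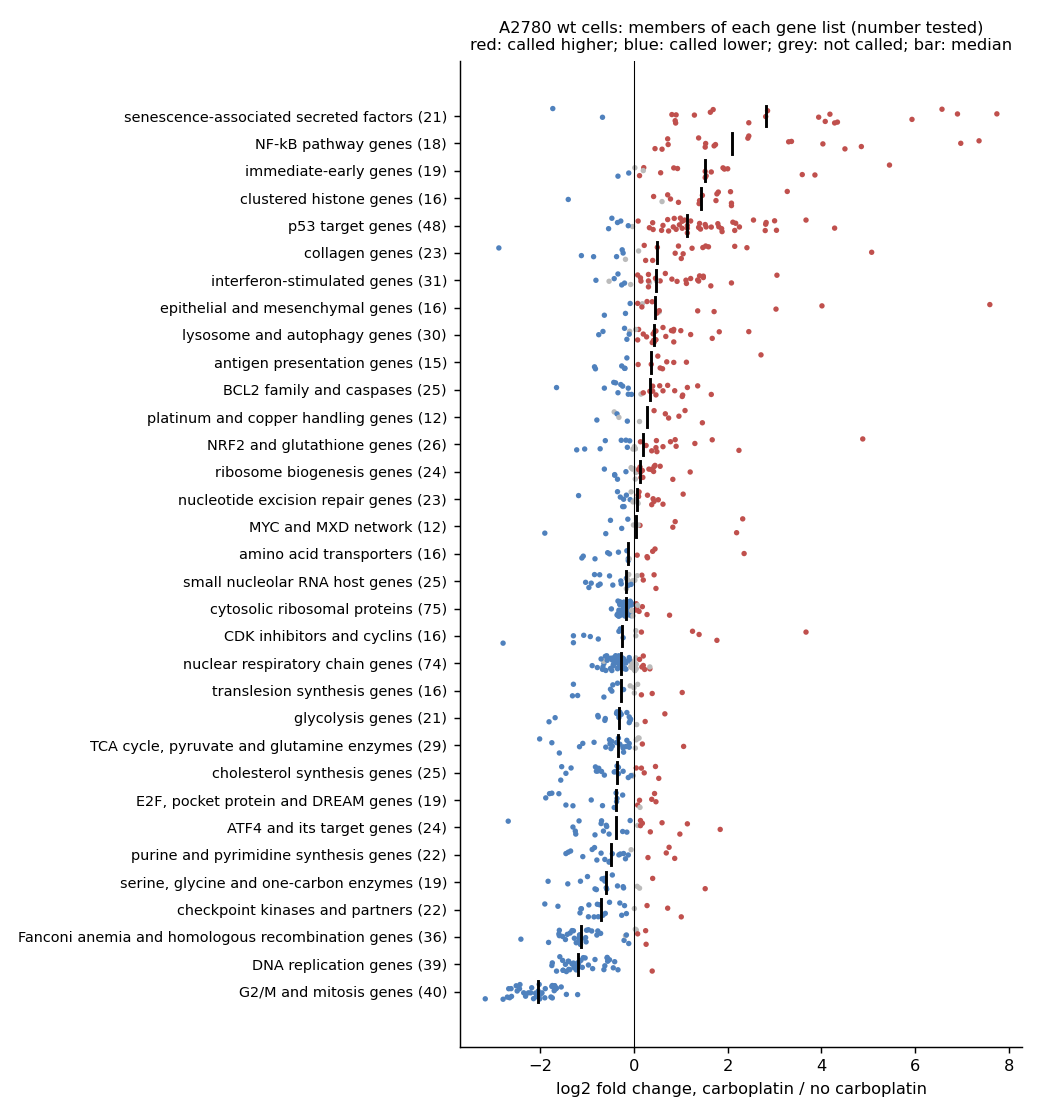
Each point is a tested member of 1 of 33 gene lists and the x axis gives its log2 fold change, carboplatin over none; red points were called higher, blue lower and grey neither, and black bars mark the list medians. Medians run from -2.05 for mitosis to 2.81 for secreted factors, and the mitosis list is the one whose points all lie below -1.

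The largest single changes belonged to genes of these groups and to others. By rule, protein-coding genes with a mean of at least 5 CPM and no overlap between the groups were ranked. CX3CL1, TRAF1 and C15orf48, a mitochondrial protein of inflamed tissue, ranked first, but each had 4 counts or fewer in every untreated library, so that the size and order of their increases are uncertain. C15orf48 had 1, 3 and 4 counts without and 256, 200 and 232 with carboplatin. Next came RUNX3 (6.35, SE 0.17), a transcription factor, and IL23A (5.84, SE 0.11), a cytokine subunit that went from 0.932, 0.705 and 0.729 to 47.3, 45.4 and 43.8 CPM. RUNX3 rose from 0.267 ± 0.1 to 22.4 ± 0.329 CPM. TRIM55, CD82 and TGM2 followed at 5.78, 5.67 and 5.40. The tetraspanin CD82 and the crosslinking enzyme TGM2 rose to 45.8 ± 0.722 and 71.5 ± 1.83 CPM, and TGM2 exons overlap RPRD1B. In the lower direction PYGM, muscle glycogen phosphorylase, led from 19.4, 18.6 and 18.1 to 1.45, 2.18 and 1.86 CPM (-3.36, SE 0.12). GAS2L3, a cytokinesis protein, fell by 3.30, the peroxisomal transporter ABCD2 by 3.04, FGFBP3 by 2.95, and the mitotic genes DEPDC1, NUF2 and CDKN3 by 2.77, 2.75 and 2.79.

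Long noncoding RNAs gave large changes of their own. UCA1 rose from 0.626 ± 0.0238 to 17.6 ± 0.462 CPM (4.80), LINC01036 by 4.43, and PINCR, a transcript known to be induced by p53, from 2.58, 2.38 and 2.71 to 45.7, 46.2 and 46.1 CPM (4.16, SE 0.09). OLMALINC fell from 33.6, 31.4 and 34.4 to 4.19, 3.33 and 4.43 CPM (-3.05, SE 0.09), LINC01224 by 2.86 and CACNA2D1-AS1 by 2.28. Some genes were almost confined to one group of libraries: 64 had at most 3 counts in every untreated library and at least 1 CPM in every treated one, and 4 showed the reverse. FBXO32, a ubiquitin ligase subunit, had 3, 3 and 1 counts without and 171, 155 and 166 with carboplatin, the chemokine CCL22 1, 1 and 2 against 98, 121 and 125, and LRRC15 1, 3 and 1 against 119, 103 and 125. FGF23, a hormone of phosphate balance, had 56, 55 and 51 counts without and 2, 3 and 3 with carboplatin.

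The same contrast in A2780cis cells, measured in other libraries, was far smaller. Of 13458 genes tested there, 9.27% were higher and 10.8% lower with carboplatin. The difference between the responses of the lines was tested as an interaction and was called for 57.6% of 15300 genes. CDKN1A rose in cis cells from 90.5 ± 0.715 to 321.8 ± 3.61 CPM, a change of 1.83 (SE 0.03) against 3.67 in wt cells, and the difference was 1.83 (SE 0.03, adjusted p = 3.61e-46). MDM2 rose by 0.49 in cis cells against 1.81. KIF20A changed by -0.31 in cis cells against -3.17, and MKI67 was not called in cis cells, at 727.6 ± 34 and 673.7 ± 70.6 CPM, with an interaction of -1.9 (SE 0.1). PHGDH changed by -0.21 in cis against -1.41 in wt cells, where its level without the drug was 149.7 ± 3.81 CPM as scaled within the cis libraries, a difference of -1.20 (SE 0.04, adjusted p = 2.85e-34). RUNX3 was at 69 ± 1.19 and 63.8 ± 2.63 CPM in cis cells without and with carboplatin and was not called there. Of the lists, p53 targets had a median of 0.42 in cis cells with 37 of 45 tested genes higher, mitosis genes -0.17 with 31 of 40 lower, and NF-kB genes 0.10 with 4 of 15 higher.

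The same contrast was also made in wt cells without serine and glycine in the medium, again in other libraries. Of 14467 genes tested there, 34.3% were higher and 34.6% lower, and the responses in both media differed for 27.7% of 15247 genes. CDKN1A changed by 3.77 without serine and glycine and by 3.67 with them (difference -0.10, SE 0.05, adjusted p = 0.193). PHGDH and PSAT1 fell more without serine and glycine, by 1.69 and 1.34 against 1.41 and 0.99, and these differences of 0.29 (SE 0.06, adjusted p = 0.00211) and 0.35 (SE 0.05, adjusted p = 6.3e-05) passed the test. Levels without carboplatin were 523.4 ± 4.6 CPM for PHGDH and 1058.1 ± 9.67 CPM for PSAT1 in that medium. RUNX3 reached 31.7 ± 1.26 CPM with carboplatin in that medium against 22.4 ± 0.329 in complete medium, from 0.0634 to 0.104 CPM and 0.164 to 0.364 CPM, levels too low for its folds to be compared. List medians were close for p53 targets (1.14 in each medium), mitosis (-1.84 against -2.05) and NF-kB genes (2.10 against 2.09). Glycolysis genes had a median of 0.20 without serine and glycine, 12 higher and 3 lower of 21, against -0.32 in complete medium, and respiratory chain genes 0.04 against -0.28. These list differences were not tested.

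**Figure D4:**
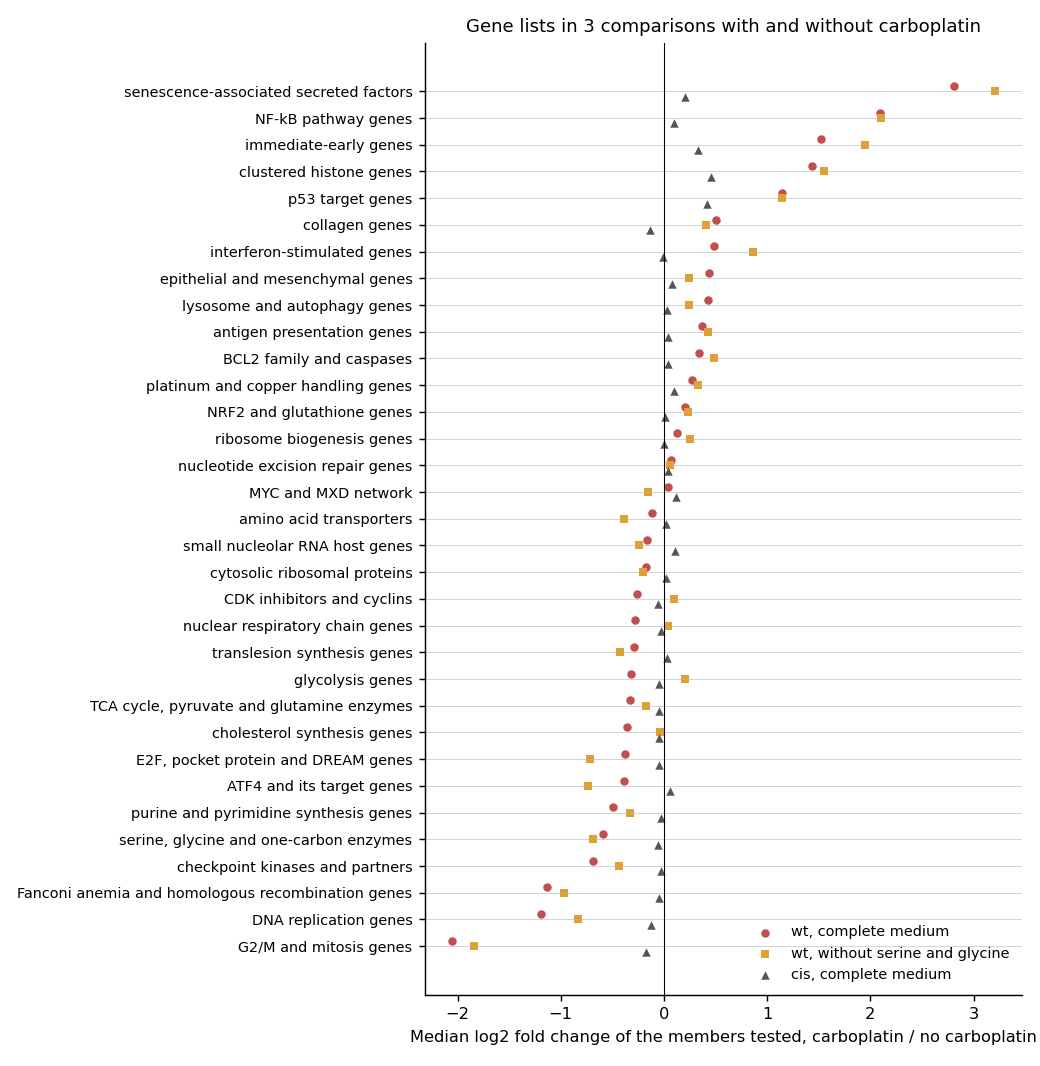
The x axis gives the median log2 fold change of each gene list, carboplatin over none, in wt cells in complete medium, wt cells without serine and glycine, and cis cells; each comparison has its own libraries. Markers of both wt comparisons lie near each other for most lists, while most cis markers lie closer to 0. Glycolysis and respiratory chain genes are among those whose medians differ in sign between the media.

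Change went slightly with gene structure. Over 12358 protein-coding genes, the change correlated with genomic span at Spearman's rho of -0.112 and with GC content of the exons at 0.155, as descriptions across genes that share libraries. In the longest of 10 equal groups by span, 163155 bases and more, the median change was -0.20 and 12.3% were at least 2-fold lower, whereas in the shortest group 15.1% were at least 2-fold higher. In the group of lowest GC content 3.4% were at least 2-fold higher, against 16.1% in group 9 of 10. Exonic length (rho -0.024) and mean level (rho -0.016) showed little rank relation, but the shares past 2-fold varied with level: in the group of lowest mean level, up to 1.89 CPM, 28.6% were at least 2-fold higher and 13.4% lower, against 4.45% and 3.07% in group 9 of 10. Removing the GC trend left 1495 genes at least 2-fold higher and 1224 lower, beside 1552 and 1250.

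**Figure D5:**
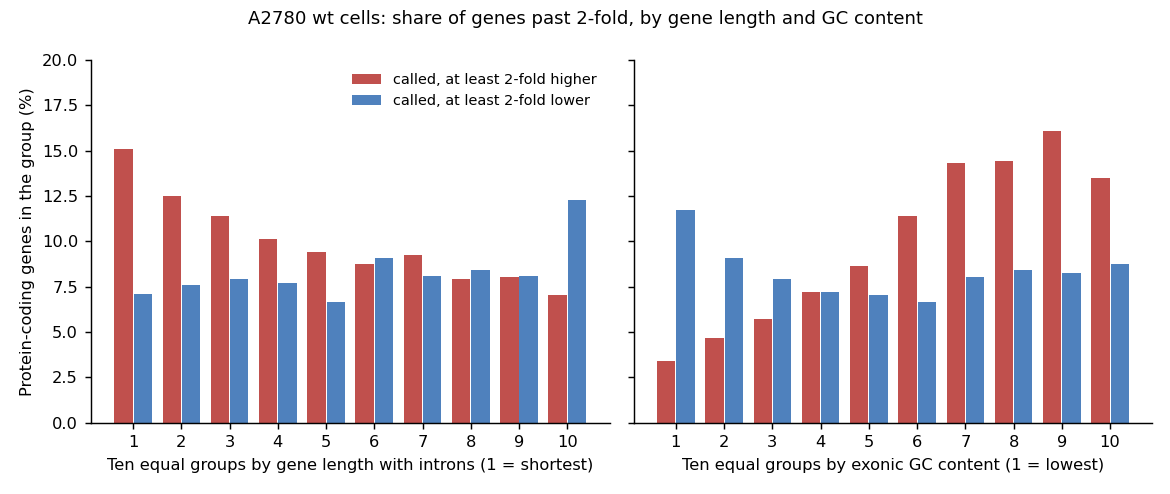
Bars give the share of protein-coding genes called at least 2-fold higher (red) or lower (blue) with carboplatin in 10 equal groups by genomic span and by exonic GC content, on axes that start at 0. The share at least 2-fold higher falls from 15.1% in the shortest group and rises from 3.4% in the group of lowest GC content.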

How the data were processed

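RNA was purified as mRNA and made into libraries with the SENSE Total RNA-Seq kit. The authors aligned reads with STAR to GRCh37.p13, sorted them with SAMtools and counted them on GENCODE v19 exons with HTSeq, and deposited raw counts per gene for 36 libraries. The submitters' notes also name DESeq and DESeq2. Rows that name no gene (7.21% to 9.31% of a library's reads had no feature) were left out. Of 57820 genes, 14639 passed filterByExpr. Groups were compared with edgeR 4.0.16 in R 4.3.3 (TMM, robust quasi-likelihood fit, Benjamini-Hochberg), which was tested on simulated data. The SE is the absolute log2 fold change divided by the square root of F. Interactions were tested in 12-library fits. Promoter letters were searched on both strands in RefSeq promoters. Ratio intervals cover counting error only. Alternatives were DESeq2 1.42.0, limma-voom 3.58.1, other scalings, filters and pooled fits, GC and length trends, and leaving out each library. Named genes were a fixed set of 8, the 12 largest protein-coding changes each way, up to 4 called members each way and 2 uncalled ones per list, 3 noncoding genes each way and 6 genes almost confined to a group. Other list members named in the text (REL, NFKB2, NFKB1, RELA, NFKBIA, TNFAIP3, MCM3, MCM6, CSF2, CCL2, IGFBP3, CDKN2B, CDK6, LUM and the uncounted interleukins and chemokines) were chosen after their values were seen. Some genes that the rule takes in are not reported here. The groups, members and 33 gene lists were chosen with earlier results of these data known.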

Additional observations from a re-analysis of the deposited data

Results flagged for a closer look

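A difference between groups in the response to carboplatin brought 11 genes here for the comparison of wt and cis cells, each tested as an edgeR interaction of line and drug with adjusted p-values over 15300 genes. The wt response minus the cis response was 1.83 for CDKN1A and 1.32 for MDM2 on the log2 scale. It was -1.2 for PHGDH, -0.95 for PSAT1, -0.65 for PSPH, -1.69 for IDH1 and -1.9 for MKI67. Among the largest changes in wt cells it was 6.46 for RUNX3, -3.06 for GAS2L3, -2.87 for KIF20A and -2.14 for FGFBP3. CX3CL1, TRAF1, C15orf48, IL23A, PYGM and ABCD2 had 0 to 8 counts in every cis library and were not tested there, so no difference is given for these 6. With 57.6% of genes called in this interaction, a call alone does not set these 11 apart.

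The responses of wt cells in both media differed for 3 of 17 genes. The response in complete medium minus that without serine and glycine was 0.29 for PHGDH, 0.35 for PSAT1 and -1.99 for RUNX3. For RUNX3 the untreated libraries without serine and glycine held 0.0634 to 0.104 CPM, a level at which the size of the fold is not reliable. The other 14 differences did not pass the test, which does not show that they were equal.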

How the results depend on the processing

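The number of genes at least 2-fold higher, 1552, depended most on low counts: it was 2396 with no filter and 996 with at least 10 counts in every library. The number at least 2-fold lower, 1250, was 1619 with no filter and 944 with at least 10 counts in every library. A test against 2-fold itself (glmTreat) gave 1162 genes higher and 786 lower. Differences of the responses, 8807 genes between wt and cis and 4219 between media, fell to 5240 and 1535 where all 36 libraries shared one fit, and the cause was not tested. On the given strand alone CCAAT was in 52.9% of mitosis promoters and E2F letters in 12.1% of replication promoters. The median change in the shortest of 10 groups by exonic length was 0.05 over all genes and -0.02 over protein-coding genes. Leaving out 1 library gave 11099 to 11274 genes called, 5548 to 5620 higher and 5535 to 5691 lower, and 1585 to 1727 at least 2-fold higher and 1283 to 1347 lower. DESeq2 called 10203 genes. Scaling by total counts gave 5125 higher and 6336 lower and moved the median of all genes to -0.07. Of 3348 recomputed values for 199 named genes 3315 kept their direction and call, 27 lost the call, 6 gained it and none reversed. Of 1122 recomputed list counts 1078 stayed within 1.5 times and 44 moved further. Genes with few counts are limited by depth, as a fold over a few counts is uncertain in size. No paired analysis was possible because the labels number the libraries through the series and give no replicate numbers that the groups share.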

Other observations

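A group of genes outside the lists also stood out: genes of the cleavage-stage embryo, including ZSCAN4 and the PRAMEF, TRIM and RFPL families. This list of 35 genes was drawn up after the values were seen, so no test is given. The 12 members that passed the filter on low counts could pass through the treated libraries alone, so their number by direction and their median are not given. ZSCAN4, a telomere and genome stability factor of early embryos, had 2, 3 and 2 counts without and 98, 95 and 118 with carboplatin. The histone variant gene H3Y1 had 4, 4 and 6 against 130, 107 and 116, PRAMEF12 had 8, 6 and 2 against 100, 81 and 85, and RFPL4B had 4, 4 and 3 against 91, 86 and 82. SLC34A2, a phosphate carrier, had 9, 14 and 15 against 353, 287 and 362. For these 5 genes the lowest treated library lay above the highest untreated one. They were chosen among members that rose, and the groups were separated for 77.9% of all genes tested. ZNF280A, the member with the most counts in the untreated libraries, went the other way, with 85, 91 and 91 against 71, 49 and 51.

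Summed over the list, the counts per library were 133 to 143 without and 896 to 1052 with carboplatin in complete medium. SLC34A2 alone gave 287 to 362 of the latter per library, so the sum does not describe each member. In wt libraries without serine and glycine the summed counts were 116 to 155 and 907 to 1006. In cis libraries they were 53 to 72 and 43 to 61, most of them from ZNF280A. Of the 23 members too low to test, 5 had no counts in all 6 libraries. The others were listed with their values known, so their number by direction is not given. DUX4, the transcription factor known to activate these genes in embryos, had 0 counts in all 6. Many members have near-identical copies, so single counts are uncertain.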
